A study of Mus musculus with 12 samples.

Results

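The genes described here are 10 members of the Cyp2c family of cytochrome P450 enzymes in mouse liver, namely *Cyp2c29*, *Cyp2c37*, *Cyp2c38*, *Cyp2c39*, *Cyp2c40*, *Cyp2c44*, *Cyp2c50*, *Cyp2c54*, *Cyp2c67* and *Cyp2c68*. They were taken by name from a table of 54532 genes, in which 18 genes carry a Cyp2c symbol. The genes were selected on measured FPKM values of the same mice, of which the higher level of *Cyp2c54* in HYA-treated than in control mice is the one known. Comparisons that contain the HYA-treated mice, and that of control with ND-fed mice, are therefore given as descriptions without p-values, and nothing is read from the counts of members past the thresholds in them. *Cyp2c44* is listed in the table as *Cyp2c23* (ENSMUSG00000025197) and was matched through its RefSeq synonym, whereas the other 9 genes were matched by symbol.

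The livers came from male C57BL/6J mice that entered the study at 5 weeks of age and ate 1 of 4 diets for 26 weeks, with 3 mice sequenced per group. ND-fed mice received the normal diet CE-2, control mice the high-fat diet HFD32, and the remaining groups HFD32 with 1% HYA or 1% LA. LA is linoleic acid, and HYA (10-hydroxy-cis-12-octadecenoic acid) is the hydroxy fatty acid that gut bacteria make from it by adding water to a double bond. Values are fragments per kilobase of gene, adjusted for sequencing depth (FPKM), from paired-end sequencing of whole-liver RNA with 17169064 to 25220880 fragments on genes per mouse. In whole liver, fewer hepatocytes and less of an mRNA per hepatocyte cannot be told apart. The ND and high-fat diets are different formulations, so that fat content cannot be told apart from their other ingredients.

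Cyp2c enzymes sit in the endoplasmic reticulum of hepatocytes, take electrons from cytochrome P450 reductase, and insert oxygen into drugs, steroids and fatty acids. With arachidonic acid and linoleic acid as substrates they form epoxides, which soluble epoxide hydrolase opens to diols, or hydroxy fatty acids. In liver their genes are known targets of the nuclear receptors CAR and PXR and of growth hormone signalling, and several are known to be expressed mainly around the central vein.

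The genes lie on chromosome 19 of GRCm38. From *Cyp2c29* at chr19:39269405-39330713 to *Cyp2c50* at chr19:40089688-40113950, 9 members span 844.5 kb, and *Cyp2c44* lies 3.89 Mb further along at chr19:44005022-44029208. Each member has 9 exons in the coding transcript compared here. Coding sequences of the 45 member pairs were between 59.1% and 97.2% identical, with a median of 78.8%. The closest sets were *Cyp2c67* and *Cyp2c68* (97.2%), then *Cyp2c37*, *Cyp2c50* and *Cyp2c54* (95.1% to 96.1%), and *Cyp2c38* and *Cyp2c39* (94.2%). *Cyp2c44* was the member least like the rest.

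Because of this likeness, reads can match several members. Of the 100-base windows of each member's transcripts, 34.4% in *Cyp2c40*, 23.7% in *Cyp2c67* and 19.8% in *Cyp2c68* occur letter for letter in another gene, in each case in the other genes of this trio or in *Cyp2c69*. The shares were 7.59% in *Cyp2c54*, 5.35% in *Cyp2c50* and 4.70% in *Cyp2c37*, all with each other, and 1.36% in *Cyp2c29*, with the pseudogene *Cyp2c53-ps* that overlaps it. *Cyp2c38*, *Cyp2c39* and *Cyp2c44* shared no such window. How reads that match several places were counted is not given in the sources used here, so the division of reads within the *Cyp2c40*, *Cyp2c67* and *Cyp2c68* trio is uncertain.

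**Figure D1:**
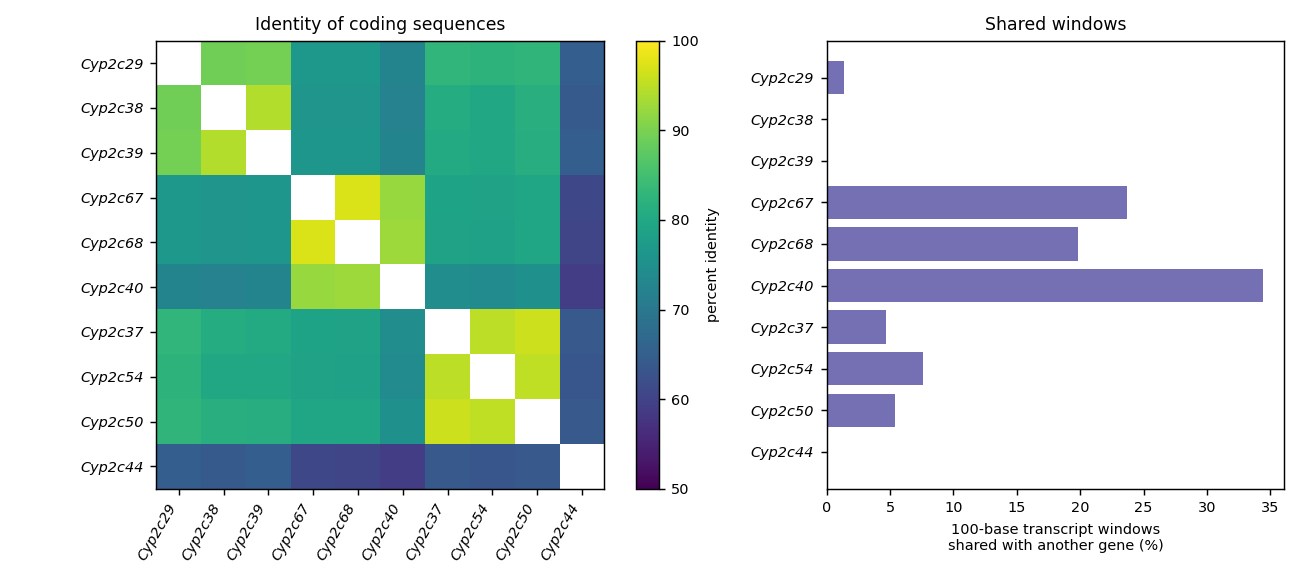
Likeness of the 10 Cyp2c members in chromosomal order. The left panel gives percent identity between coding sequences as colour, and the right panel the percentage of each member's 100-base transcript windows that also occur in another gene, from 0 in Cyp2c38, Cyp2c39 and Cyp2c44 to 34.4% in Cyp2c40.

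RefSeq promoters of GRCm38.p6, each from 250 bases before to 50 bases after the start of the gene, were found for 8 of the 10 members. For *Cyp2c29* the RefSeq start used lies inside the gene as the table bounds it, not at the outer end given above. Those of *Cyp2c37* and *Cyp2c50* are shown because these neighbours had the closest promoters among the members (86.6% identical) and moved together between mice. *Cyp2c37* is at chr19:39992174-39992473 and *Cyp2c50* at chr19:40089429-40089728, both on the plus strand. The capitals mark a match to TTGCNNCAA, searched as a C/EBP motif, which is not a palindrome. The match lies on the minus strand, so the letters printed are its reverse complement.
Cyp2c37: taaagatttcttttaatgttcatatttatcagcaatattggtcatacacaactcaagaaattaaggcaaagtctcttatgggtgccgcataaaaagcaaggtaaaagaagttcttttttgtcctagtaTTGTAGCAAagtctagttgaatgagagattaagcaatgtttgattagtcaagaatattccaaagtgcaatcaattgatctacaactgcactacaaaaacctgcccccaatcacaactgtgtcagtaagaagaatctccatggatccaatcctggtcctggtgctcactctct
Cyp2c50: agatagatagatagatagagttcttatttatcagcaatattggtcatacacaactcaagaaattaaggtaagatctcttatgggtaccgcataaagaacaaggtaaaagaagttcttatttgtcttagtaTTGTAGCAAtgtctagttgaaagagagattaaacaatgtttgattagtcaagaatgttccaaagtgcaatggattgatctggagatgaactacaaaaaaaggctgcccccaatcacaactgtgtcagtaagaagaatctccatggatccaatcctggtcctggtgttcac
The match begins 122 bases before the start in *Cyp2c37* and 120 bases before it in *Cyp2c50*, and it was found in no other member promoter searched. Of 32817 RefSeq promoters of the same length, 2.08% hold it.

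The promoters of *Cyp2c29*, *Cyp2c38* and *Cyp2c39* are shown because these genes are close in sequence but differed in the direction of their change. *Cyp2c29* is at chr19:39286835-39287134 (plus strand), *Cyp2c38* at chr19:39463026-39463325 (minus strand) and *Cyp2c39* at chr19:39510572-39510871 (plus strand), and the capitals mark TATAAA.
Cyp2c29: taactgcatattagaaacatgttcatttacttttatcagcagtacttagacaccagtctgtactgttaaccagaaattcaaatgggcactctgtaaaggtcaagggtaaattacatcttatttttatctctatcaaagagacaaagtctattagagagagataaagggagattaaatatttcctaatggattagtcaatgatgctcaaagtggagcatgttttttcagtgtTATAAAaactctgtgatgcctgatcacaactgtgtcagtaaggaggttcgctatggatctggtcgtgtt
Cyp2c38: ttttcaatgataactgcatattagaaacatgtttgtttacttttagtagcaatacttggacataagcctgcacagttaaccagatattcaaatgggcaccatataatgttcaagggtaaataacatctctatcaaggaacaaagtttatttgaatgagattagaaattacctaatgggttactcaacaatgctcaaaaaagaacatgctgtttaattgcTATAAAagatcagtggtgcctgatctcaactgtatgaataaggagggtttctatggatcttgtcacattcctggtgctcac
Cyp2c39: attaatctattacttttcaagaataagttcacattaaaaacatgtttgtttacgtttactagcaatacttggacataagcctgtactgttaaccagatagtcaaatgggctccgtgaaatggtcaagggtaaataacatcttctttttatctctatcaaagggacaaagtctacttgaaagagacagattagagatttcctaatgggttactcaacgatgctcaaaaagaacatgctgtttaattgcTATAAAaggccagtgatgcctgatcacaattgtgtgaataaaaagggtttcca
These promoters were 69.0% to 72.6% identical in pairs, with *Cyp2c38* and *Cyp2c39* the closest. TATAAA was present in 5 of the 8 member promoters and in 13.6% of all promoters. Relative to the start used, it begins at -19 in *Cyp2c29*, -31 in *Cyp2c38*, -3 in *Cyp2c39* and -40 in *Cyp2c67*. In *Cyp2c40* it begins after the start, at position 41. On either strand no member promoter held the STAT palindrome TTCNNNGAA (8.29% of all promoters), a direct repeat of AGGTCA with 1 base (0.0396%) or 4 bases (0.0152%) between its copies, or the HNF1 palindrome (0.00914%). A match describes letters in this window only.

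Hepatic abundance of these mRNAs summed to 1766 ± 22.0 FPKM (SD, n = 3) in ND-fed mice, 424 ± 84.1 in control mice, 771 ± 72.5 in HYA-treated mice and 466 ± 59.9 in LA-treated mice. The single sums were 1765, 1744.5 and 1788 FPKM in ND-fed mice and 328, 487 and 457 in control mice. In HYA-treated mice they were 700.2, 845 and 768, and in LA-treated mice 397, 501 and 501. The ranges of ND-fed and HYA-treated mice overlapped no other group, whereas those of control and LA-treated mice overlapped. As a share of the ND mean, control mice had 24.0%, HYA-treated mice 43.7% and LA-treated mice 26.4%. Members took 0.404% of all fragments on genes in ND-fed mice and 0.105%, 0.182% and 0.118% in the other groups in the same order.

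The makeup of the sum also differed between diets. *Cyp2c29* was the leading member in every group, with 32.5% of the sum in ND-fed mice and 22.7% in control mice. *Cyp2c54* made up 10.6% with ND and 2.13% in control mice, and stood at 6.59% with HYA and 2.40% with LA. *Cyp2c67* made up 7.28% in ND-fed mice but 21.1% in control mice, and *Cyp2c38* 0.863% against 8.49%. *Cyp2c44* held 11.0% to 11.3% of the sum in every group.

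**Figure D2:**
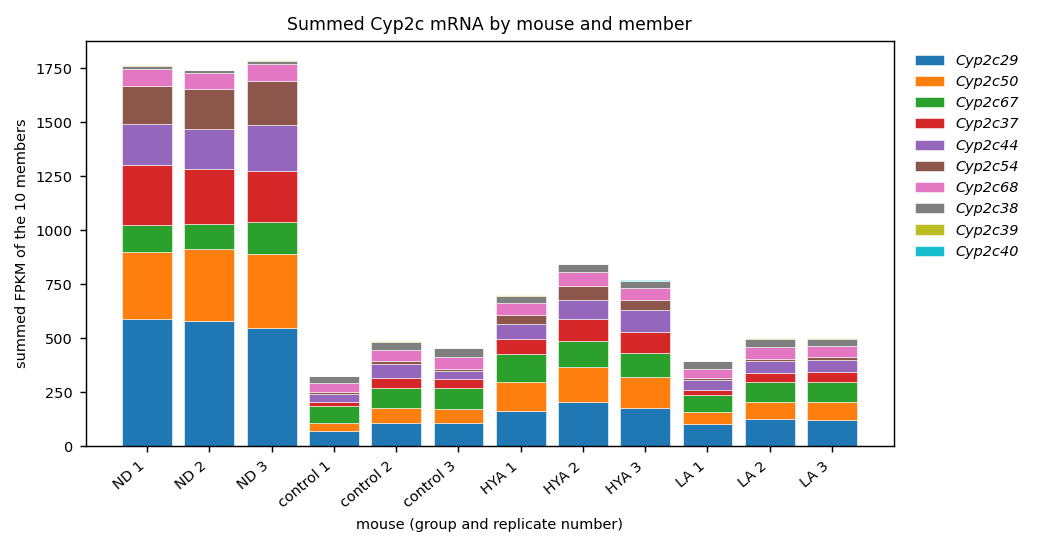
Summed FPKM of the 10 Cyp2c members in each of the 12 mice, stacked by member. The ND bars reach 1744.5 to 1788 FPKM, the control bars 328 to 487, the HYA bars 700.2 to 845 and the LA bars 397 to 501, and the Cyp2c54 segment is 10.6% of the sum in ND-fed and 2.13% in control mice.

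*Cyp2c29*, an arachidonic acid epoxygenase and a known target of CAR, was the most abundant member in ND-fed mice at 590.2, 582 and 549 FPKM. The values were 72.2, 108 and 108 FPKM in control mice, 164, 207 and 176 in HYA-treated mice, and 102, 128 and 121 in LA-treated mice. ND-fed and HYA-treated mice overlapped no other group. The control mean of 96.4 FPKM was 16.8% of the ND mean, and the HYA mean of 182 FPKM was 31.8% of it.

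*Cyp2c50*, which forms epoxides and hydroxy products of arachidonic acid, was at 312, 331 and 340.0 FPKM in ND-fed mice and at 37.3, 69.2 and 67.1 in control mice. HYA-treated mice had 136, 162 and 144 FPKM and LA-treated mice 58.2, 76.8 and 87.1. The order of groups was that of *Cyp2c29*, with overlap between control and LA-treated mice alone. The HYA mean was 45.0% of the ND mean, against 17.7% for control mice.

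*Cyp2c54*, a close relative of *Cyp2c50* that also oxidises arachidonic acid, had the widest range between diets among the members on the fold scale. ND-fed mice were at 177, 182 and 203 FPKM and control mice at 4.97, 11.0 and 12.0. HYA-treated mice were at 43.1, 62.2 and 48.0 FPKM, and LA-treated mice at 10.2, 10.6 and 12.7. The lowest HYA value was thus above the highest value of the control and LA groups and below every ND value. On FPKM means, ND-fed mice were 20.1-fold above control mice, and HYA-treated mice 5.48-fold above control and 4.58-fold above LA-treated mice.

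*Cyp2c44*, an epoxygenase studied mostly in the kidney, lies outside the gene cluster. Its mRNA was at 190.2, 187 and 211 FPKM in ND-fed mice and at 40.6, 65.0 and 37.5 in control mice. HYA-treated mice had 68.8, 88.3 and 98.0 FPKM and LA-treated mice 44.1, 53.2 and 55.7. Groups separated as for *Cyp2c29*, although the gap between the highest control and the lowest HYA mouse was narrow. The HYA mean was 43.3% of the ND mean.

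*Cyp2c38* and *Cyp2c39* moved the other way. *Cyp2c38*, which forms epoxides of arachidonic acid, was at 16.0, 14.4 and 15.4 FPKM in ND-fed mice and at 31.7, 36.2 and 38.3 in control mice. HYA-treated mice had 34.7, 35.3 and 33.8 FPKM and LA-treated mice 35.6, 38.0 and 34.5, so that all 9 mice on the high-fat diet stood above all ND-fed mice and overlapped each other. The 3 high-fat groups had means between 34.6 and 36.0 FPKM, against 15.2 in ND-fed mice.

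*Cyp2c39*, an epoxygenase that also hydroxylates retinoic acid, was scarce. Its level was 0.720, 0.866 and 0.827 FPKM in ND-fed mice, 1.84, 2.78 and 2.52 in control mice, 1.504, 2.06 and 1.91 in HYA-treated mice, and 2.87, 1.94 and 2.35 in LA-treated mice. Every high-fat mouse exceeded every ND-fed mouse, and the high-fat groups overlapped. Its ND mean of 0.804 FPKM is under the minimum of 1 FPKM used for testing, so that the gene was tested only through its level in the high-fat groups.

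*Cyp2c37*, which hydroxylates arachidonic acid, behaved like its neighbours *Cyp2c50* and *Cyp2c54*. Its level was 279.9, 253 and 238 FPKM in ND-fed mice and 18.0, 49.3 and 39.6 in control mice. It was 72.4, 101 and 97.4 FPKM in HYA-treated mice and 24.7, 40.4 and 49.0 in LA-treated mice. The spread among control mice was wide for this gene, and control 1 was the lowest of the 12 mice. The HYA mean was 2.53-fold the control mean and 35.2% of the ND mean.

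*Cyp2c40*, another arachidonic acid hydroxylase, was scarce, with 235 fragments over the 12 mice, and its mean of 0.502 FPKM kept it out of the tests. It had 29, 24 and 64 fragments in ND-fed mice, 4, 9 and 24 in control mice, 5, 17 and 24 in HYA-treated mice and 5, 14 and 16 in LA-treated mice. In FPKM the ND-fed mice were at 0.810, 0.742 and 1.75, above the highest high-fat mouse at 0.569. Given the windows it shares with *Cyp2c67* and *Cyp2c68*, which are much more abundant, these few fragments cannot be assigned with certainty.

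*Cyp2c67* and *Cyp2c68* varied least among the abundant members. *Cyp2c67* was at 121, 117 and 148 FPKM in ND-fed mice, 76.6, 91.7 and 96.1 in control mice, 125, 119.6 and 114 in HYA-treated mice and 77.5, 95.2 and 89.6 in LA-treated mice. HYA-treated mice overlapped with ND-fed mice for this gene and stood above all control and LA-treated mice. *Cyp2c68* was at 77.2, 76.3 and 80.4 FPKM in ND-fed mice and at 44.9, 52.6 and 54.5 in control mice. With 54.0, 66.5 and 55.0 FPKM for HYA and 42.3, 57.5 and 48.7 for LA, the high-fat groups overlapped and ND-fed mice stood apart.

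**Figure D3:**
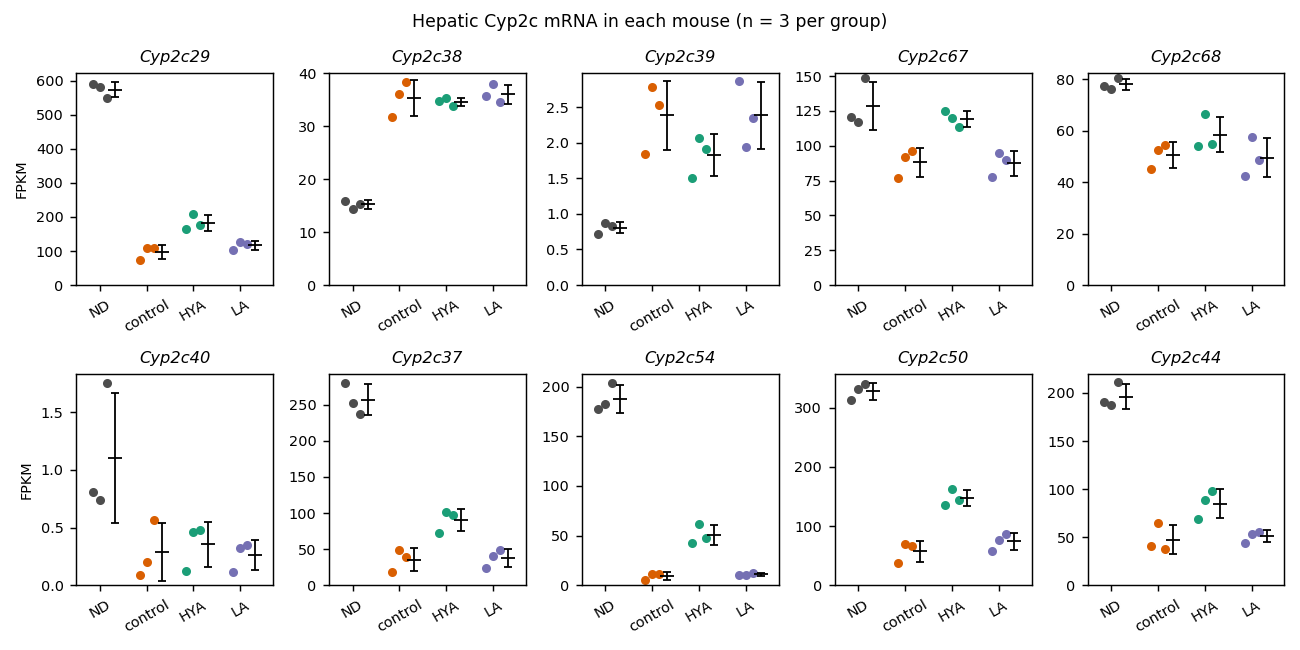
FPKM of each Cyp2c member in the 12 mice, with each mouse as a point and the group mean ± SD beside it (n = 3 per group, separate axes per gene). Cyp2c38 and Cyp2c39 are higher in all high-fat mice than in ND-fed mice, and Cyp2c54 ranges from 4.97 FPKM in a control mouse to 203 in an ND-fed mouse.

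The effect of the high-fat diet was compared between control and ND-fed mice. Differences were fitted with limma on log2(FPKM + 1) over 11083 genes (mean level 1 FPKM or more), which include 9 members, and a gene was called at a Benjamini-Hochberg adjusted p below 0.05 with a log2 fold change beyond 1 in either direction. Of the 9 members tested, 5 passed both thresholds as lower in control mice, where 1.63% of all tested genes did, and 1 as higher, where 2.25% did. The control mice are those of the contrast known to have entered the selection. The log2 fold change was -4.27 (SE 0.25) for *Cyp2c54*, -2.92 (0.33) for *Cyp2c37* and -2.59 (0.15) for *Cyp2c29*. It was -2.53 (0.21) for *Cyp2c50* and -2.06 (0.19) for *Cyp2c44*. *Cyp2c38* was the member past both thresholds as higher, at 1.16 (0.07).

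The other members tested did not reach the fold threshold. *Cyp2c67* differed by -0.54 (SE 0.11), *Cyp2c68* by -0.62 (0.12) and *Cyp2c39* by 0.90 (0.13) on the log2 scale. For *Cyp2c39* the pseudocount holds the value down, and its log2 fold change was 1.44 with a pseudocount of 0.1, but the gene passed the filter only through the groups in which it is higher. For all 9 members tested the ranges of control and ND-fed mice did not overlap, which was so for 45.6% of all tested genes. The median log2 fold change was -2.06 over the members and -0.04 over all tested genes, although rescaling to TPM moved the latter to 0.18.

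Treatment with HYA was compared with the high-fat diet alone, which is the contrast known to have entered the selection. The log2 fold change of HYA-treated against control mice was 2.40 (SE 0.25) for *Cyp2c54*, 1.42 (0.33) for *Cyp2c37* and 1.38 (0.21) for *Cyp2c50*, and these 3 members lay past both thresholds beside 0.162% of all tested genes, which the selection itself can give. It was 0.93 (0.15) for *Cyp2c29*, 0.85 (0.19) for *Cyp2c44* and 0.44 (0.11) for *Cyp2c67*. *Cyp2c68* differed by 0.20 (0.12), *Cyp2c38* by -0.03 (0.07) and *Cyp2c39* by -0.25 (0.13). The control mice are the same 3 as in the comparison with ND-fed mice. Ranges did not overlap for 6 members, beside 21.6% of all tested genes. The median was 0.85 over the members and 0.02 over all tested genes, the latter -0.10 with TPM.

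Which members lay past both thresholds depended on single mice and on the processing. Without HYA-treated mouse 2 no member passed both thresholds, and without control mouse 2 there were 5. The call for *Cyp2c37* was also lost when control mouse 1 or 3, or HYA-treated mouse 1 or 3, was left out. It was lost as well with a pseudocount of 0.1, with no filter on low values and with TPM, each of which left 2 members. When only the HYA and control groups were fitted, no member was called.

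LA was given at the same dose as its hydroxy derivative. Its group is set here against the control mice of the contrast known to have entered the selection. No member was called in LA-treated against control mice, in either direction, as for all tested genes (0% higher and 0% lower). At an unadjusted limma p below 0.05 there were 0 members and 294 genes in all, and voom on recovered fragments, the other method run, called 0 members too. The differences lay between -0.04 for *Cyp2c68* (95% interval -0.30 to 0.22) and 0.38 for *Cyp2c50* (-0.08 to 0.85) on the log2 scale, with limma adjusted p-values of 0.999 and above. For *Cyp2c54* the difference was 0.31 with an interval of -0.24 to 0.86, and for *Cyp2c37* it was 0.15 with an interval of -0.58 to 0.88, which leaves room for a difference of either sign. Ranges overlapped for all 9 members tested, where 7.55% of all tested genes had ranges that did not. The median log2 fold change was 0.13 over the members and 0.0031 over all tested genes.

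HYA and LA differ by 1 hydration step and were both fed at 1% for 26 weeks, so their groups were compared directly. The same HYA-treated mice enter as in the contrast with control mice, and p-values are left out for that reason. *Cyp2c54* was higher with HYA by 2.09 on the log2 scale (95% interval 1.54 to 2.64) and was the only member called, where 0.0271% of all tested genes were called higher. *Cyp2c37* differed by 1.26 (0.54 to 1.99), *Cyp2c50* by 1.00 (0.54 to 1.47), *Cyp2c44* by 0.72 (0.30 to 1.14), *Cyp2c29* by 0.64 (0.30 to 0.97) and *Cyp2c67* by 0.45 (0.20 to 0.70). For these 6 members the ranges of both groups did not overlap, as for 25.2% of all tested genes. *Cyp2c68* differed by 0.24 (-0.01 to 0.50), *Cyp2c38* by -0.06 (-0.21 to 0.10) and *Cyp2c39* by -0.25 (-0.54 to 0.03), with ranges that overlapped. The intervals are given as descriptions, and no member is judged by whether its interval includes 0. The call for *Cyp2c54* was lost without HYA-treated mouse 2, LA-treated mouse 1 or LA-treated mouse 2.

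**Figure D4:**
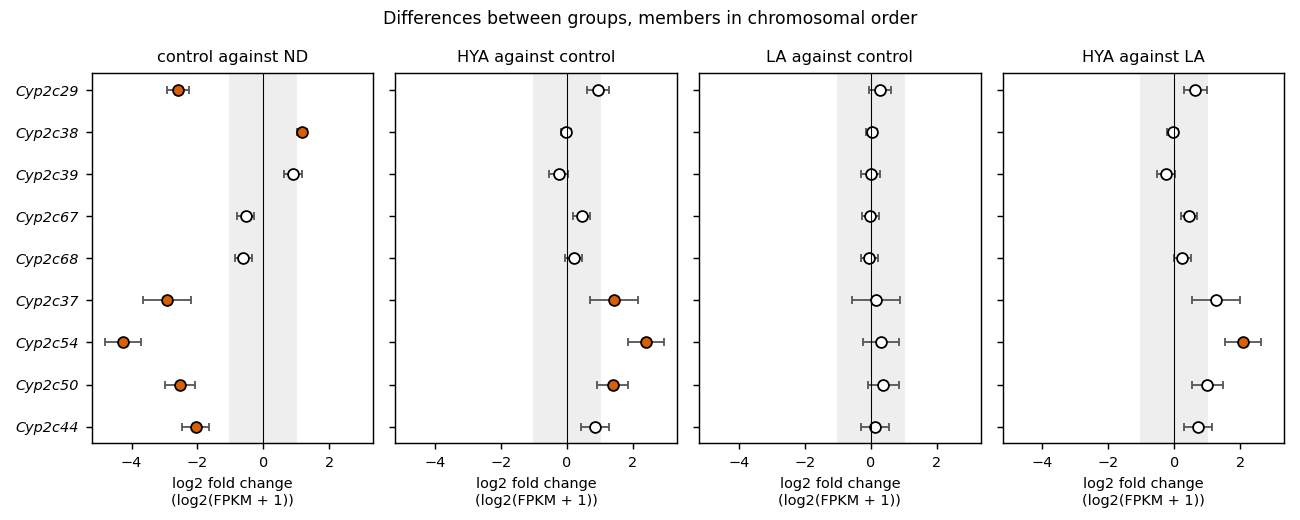
Log2 fold change with 95% interval of the 9 Cyp2c members tested in 4 comparisons, on the log2(FPKM + 1) scale. Filled points passed both thresholds (adjusted p below 0.05 and a log2 fold change beyond the grey band, which ends at 1 in either direction), which were 6 members for control against ND, 3 for HYA against control, 0 for LA against control and 1 for HYA against LA.

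Compared with ND-fed mice, HYA-treated mice had lower levels of the 5 members named above as lower in control mice. The log2 fold change was -1.87 (SE 0.25) for *Cyp2c54*, -1.65 (0.15) for *Cyp2c29* and -1.51 (0.33) for *Cyp2c37*. It was -1.21 (0.19) for *Cyp2c44* and -1.15 (0.21) for *Cyp2c50*. These 5 members lay past both thresholds as lower, beside 0.614% of all tested genes, and *Cyp2c38* as higher at 1.13 (0.07), beside 1.27%. *Cyp2c67* differed by -0.10 with a 95% interval of -0.35 to 0.15. Ranges did not overlap for 8 members, against 35.9% of all tested genes. Among the 8 is *Cyp2c39*, which passed the filter only through the high-fat groups, in which it is higher.

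LA-treated mice were set against ND-fed mice in the same way. No mouse of this comparison belongs to HYA against control, the 1 contrast known to have entered the selection. Values of these mice may have entered the selection too, so the adjusted p-values are given as descriptions. Of the 9 members tested, 5 were called lower with LA, where 1.36% of all tested genes were, and *Cyp2c38* was called higher, where 2.13% were. By limma, the log2 fold change was -3.96 (SE 0.25, adjusted p = 2.33e-06) for *Cyp2c54*, -2.77 (0.33, 0.000149) for *Cyp2c37* and -2.29 (0.15, 3.15e-06) for *Cyp2c29*. It was -2.15 (0.21, limma adjusted p = 4.59e-05) for *Cyp2c50*, -1.93 (0.19, 4.85e-05) for *Cyp2c44* and 1.19 (0.07, 2.03e-06) for *Cyp2c38*. *Cyp2c67* at -0.55 (0.11, limma adjusted p = 0.00411) and *Cyp2c68* at -0.66 (0.12, 0.00176) passed the adjusted p without the fold threshold. The median was -1.93 over the members and -0.04 over all tested genes. None of the 9 members had overlapping ranges, against 47% of all tested genes without overlap. Among the 9 is *Cyp2c39*, which passed the filter only through the high-fat groups, in which it is higher. The control, HYA and LA groups were all compared with the same 3 ND-fed mice.

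Among the 9 mice on the high-fat diet, several members varied together, as a description of points that share group, library and depth. Pearson's r of log2(FPKM + 1) was 0.989 for *Cyp2c29* and *Cyp2c50*, and 0.945 after the group means were removed. For *Cyp2c37* and *Cyp2c50* it was 0.970 and 0.976 in the same order, and for *Cyp2c50* and *Cyp2c54* 0.970 and 0.922. *Cyp2c29* shares no window with these genes. *Cyp2c67* and *Cyp2c68*, which share windows, had 0.802 and 0.759. *Cyp2c38* and *Cyp2c39* followed the summed level of the members little, with r of 0.0769 and -0.409, but the pattern was another within groups. After the group means were removed, *Cyp2c38* had r of 0.799 with *Cyp2c29*, 0.790 with *Cyp2c67*, 0.749 with *Cyp2c54* and 0.686 with *Cyp2c50*. *Cyp2c39* then had 0.680 with *Cyp2c54* and 0.443 with *Cyp2c29*. Other pairs were low, with 0.018 for *Cyp2c38* and *Cyp2c44*, and 0.04 and -0.044 for *Cyp2c39* with *Cyp2c68* and *Cyp2c67*. Removing the group means took *Cyp2c44* from 0.857 to 0.37 with *Cyp2c54* and from 0.768 to 0.162 with *Cyp2c67*. With *Cyp2c37* it went from 0.896 to 0.67.

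The genes outside Cyp2c whose levels over these 9 mice were most like the summed members were *Keg1* (r = 0.991), *Gpld1* (0.990), which encodes a phospholipase that cleaves membrane anchors, *Cyp7b1* (0.988), an oxysterol hydroxylase, *Cyp4f14* (0.985), a hydroxylase of fatty acids and leukotrienes, and *Mup1* (0.984), a major urinary protein. After the group means were removed, r was 0.967, 0.950, 0.947, 0.922 and 0.942 in the same order. Likeness was not confined to these genes, since 314 tested genes, Cyp2c members included, had r above 0.9 before that step. That level is under the r of the 5 genes named.

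Of the 8 Cyp2c genes that are not members, *Cyp2c70*, which makes muricholic acids from bile acids, was the most abundant, with mean levels of 276, 61.4, 89.1 and 75.6 FPKM in the order ND, control, HYA and LA. Control mice differed from ND-fed mice by -2.16 on the log2 scale, and HYA-treated mice from control mice by 0.55. *Cyp2c55* had 7.18, 1.82, 1.29 and 2.08 FPKM in the same order, with log2 fold changes of -1.55 and -0.29. *Cyp2c65*, *Cyp2c69*, *Cyp2c52-ps* and *Cyp2c53-ps* were near 0, and *Cyp2c66* and *Cyp2c73-ps* were at 0 in every mouse.

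Other genes of P450 biology were counted from lists. The shares of all tested genes to set beside these counts are, for control against ND, 19.1% lower and 16.2% higher by the adjusted p alone and those given above past both thresholds. For HYA against control they are 0.144% lower past both thresholds, and 1.57% higher and 1.23% lower by the adjusted p alone. Of 18 tested receptors and transcription factors none was called in control against ND-fed mice, and by the adjusted p alone 5 were lower and 0 higher, among them *Hnf4a* (-0.54), a nuclear receptor that maintains hepatocyte expression. *Nr1i3*, which encodes CAR, had means of 48.5, 39.1, 49.2 and 35.5 FPKM in ND-fed, control, HYA-treated and LA-treated mice. *Nr1i2*, which encodes PXR, had 32.3, 26.3, 26.5 and 24.2 FPKM. Neither passed the adjusted p in control against ND-fed mice. None of the 18 passed the adjusted p in HYA-treated against control mice, and the lists were chosen with results of these mice known.

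Of 15 tested CAR and PXR target genes outside Cyp2c, 4 were called higher and 2 lower in control against ND-fed mice, and 0 higher and 3 lower in HYA-treated against control mice. The 4 higher in control mice were *Cyp2b9* (3.233), *Cyp2b13* (1.96), *Gstm3* (1.901) and *Gsta1* (1.402). Among these 4 are the 3 lower with HYA, *Gsta1* (-1.273), *Gstm3* (-1.045) and *Cyp2b9* (-1.038). The 2 lower in control mice were *Ces2a* (-2.757) and *Cyp3a11* (-1.84), a main drug-oxidising enzyme. *Cyp3a11* had means of 958, 267, 252 and 330 FPKM in ND-fed, control, HYA-treated and LA-treated mice. *Aldh1a1* differed by -0.034 in control against ND-fed mice. Of the 13 tested genes for electron transfer to P450 enzymes and for haem synthesis or breakdown, 7 were lower and 2 higher by the adjusted p alone in control against ND-fed mice, and none reached the fold threshold. The 2 higher were *Cyb5r3* (0.341) and the haem breakdown gene *Hmox1* (0.535). Of 6 tested genes listed with epoxygenases and epoxide hydrolases, 3 were lower and 1 higher by the same measure. The 1 higher was *Pla2g6* (0.427), which is neither an epoxygenase nor an epoxide hydrolase. *Ephx2*, the soluble epoxide hydrolase that acts on the products of Cyp2c enzymes, had 368, 284, 357 and 286 FPKM in ND-fed, control, HYA-treated and LA-treated mice. No gene of any of these lists was called in LA-treated against control mice.

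Markers of liver zones and cell types moved with the diets as well. By the adjusted p alone, 19.1% of all tested genes were lower and 16.2% higher in control against ND-fed mice. In HYA-treated against control mice 1.57% were higher and 1.23% lower by this measure. Of 12 pericentral genes, 5 were lower and 1 higher in control against ND-fed mice by the adjusted p alone. In HYA-treated against control mice 3 were higher by this measure, among them *Cyp2e1*. The means of *Cyp2e1* were 3195, 1800, 3087 and 1810 FPKM in ND-fed, control, HYA-treated and LA-treated mice. The 1 higher in control mice was *Glul* (0.458), with means of 329.5, 454.1, 573.5 and 461.2 FPKM in the same order. Of 12 periportal genes, 5 were lower and 2 higher in control mice and 2 were lower in HYA-treated mice. The 8 hepatocyte markers, whose sum is mostly albumin, added up to 38030 to 39150 FPKM with ND, 24120 to 27910 in control livers, 30940 to 32230 with HYA and 26900 to 27420 with LA, and 7 of them were lower in control livers than with ND by the adjusted p alone. This sum had the order of groups of the summed members in a narrower range, although *Ttr* was lower with LA (3006 FPKM) than in control mice (3124), and the part of either list in the differences of the Cyp2c genes was not tested.

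Markers of other cells were detected at lower levels. The 8 stellate cell markers summed to 54.9 to 81.7 FPKM with ND, 89.6 to 112 in control livers, 90.8 to 102 with HYA and 95.2 to 119 with LA, with *Ecm1* as the main contributor. Of these 8, 4 were higher and 0 lower in control livers against ND by the adjusted p alone. In HYA-treated against control mice 0 were higher and 2 lower. The collagen genes *Col1a1* (2.55) and *Col3a1* (2.25) were called higher in control livers (against ND). In HYA-treated against control mice *Col1a1* was called lower (-1.12), while *Col3a1* differed by -0.83 without reaching the fold threshold. *Ecm1* (0.082 and 0.182) and *Lrat* (0.481 and 0.173) passed the adjusted p in neither comparison, given in the same order. The 8 Kupffer cell and macrophage markers summed to 119 to 184 FPKM with ND, 181 to 190 in control livers, 134 to 184 with HYA and 186 to 198 with LA, led by *Cd5l*. *Cd68* (1.07) and *Gpnmb* (1.69) were called higher in control livers. By the adjusted p alone, 3 of the 7 tested were higher and 1 lower in control livers against ND, the latter *Timd4* (-0.893). The 6 endothelial markers summed to 50.6 to 63.2 FPKM in ND-fed and 68.3 to 72.9 in all high-fat mice, with *Lyve1* called higher in control mice (1.36), and the cholangiocyte markers to 7.12 to 12.9 over all mice. None of the 7 lymphocyte markers reached the minimum level for testing, and no marker of these lists was at 0 in every mouse.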

How the data were processed

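Liver mRNA of 12 mice in 4 groups was compared. Per the labels, the authors used fastp, HISAT2 2.0.5 and featureCounts 1.5.0-p3, and they deposited FPKM per gene and mouse on GRCm38. The methods of the study name TPM, but the columns have unequal totals between 342146 and 429286. The treatment of reads that match several places and the use of strand are not given in the sources used here. FPKM multiplied by gene length gave whole fragments for 99.851% of values (tolerance 0.01), and depth was taken from them.

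Comparisons used limma 3.58.1 in R 4.3.3 (1 fit of all 12 mice, empirical Bayes with trend, two-sided) on log2(FPKM + 1), with Benjamini-Hochberg adjustment over 11083 genes (mean level 1 FPKM or more). Fold changes on this scale understate changes of low genes. Calls needed an adjusted p below 0.05 and a log2 fold change beyond 1 in either direction. The fit was also run on simulated data, at a lower fold threshold than that of the calls. That run did not test the calling rule used here. The design foresaw a count test for counts and limma for FPKM, and the latter was used.

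The members and lists were chosen with earlier results of these data known. Genes named are the members, the other Cyp2c genes, the 3 most abundant tested genes of each list with *Nr1i3* and *Nr1i2*, and the 5 genes most like the summed members. Of these, list genes are printed only in part. *Col1a1*, *Cd68*, *Gpnmb*, *Timd4*, *Lyve1*, *Pla2g6*, *Cyb5r3* and *Hmox1* were added after their values were seen. The same holds for *Cyp2b9*, *Cyp2b13*, *Gstm3*, *Gsta1* and *Ces2a*. Promoters and their motifs came from RefSeq (GRCm38.p6), and coding sequences and shared windows from the GENCODE transcripts. Alternatives were a pseudocount of 0.1, no filter, TPM, median-ratio size factors, a replicate block, no fold threshold, fitting just the groups at issue, voom on recovered fragments (14353 genes, mean 10 or more), and leaving out each mouse.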

Additional observations from a re-analysis of the deposited data

How the results depend on the processing

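The 6 members called in control, HYA-treated and LA-treated against ND-fed mice passed under every alternative run. For HYA-treated against control mice the 3 calls became 0 in a fit of only those groups 5 with no threshold on fold change and 2 with a pseudocount of 0.1, no filter on low values or TPM (*Cyp2c37* lost), and ranged from 0 (without HYA-treated mouse 2) to 5 (without control mouse 2) when single mice were left out. For HYA-treated against LA-treated mice the 1 call became 0 with no filter on low values and 2 in a fit of only those groups, and ranged from 0 to 1 when single mice were left out. A replicate block gave 3 calls there. Replicate numbers did not pair the mice, since deviations of same-numbered mice correlated at -0.40 to 0.29 over 18 pairs. The causes of these changes were not tested. Fewer mice entered some fits. More genes than the 11083 of the main fit entered the fit with no filter (26045) and voom (14353).

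TPM moved the median of all tested genes from -0.04 to 0.18 in LA-treated against ND-fed mice and from 0.01 to -0.10 in HYA-treated against LA-treated mice. Small differences changed sign. In LA-treated against control mice *Cyp2c39* was at -0.0026 with TPM and -0.011 with voom, and *Cyp2c67* in HYA-treated against ND-fed mice was at 0.0122 with TPM. Without single mice, log2 fold changes of LA-treated against control mice ranged from -0.2639 to 0.4377 for *Cyp2c37*, -0.0469 to 0.087 for *Cyp2c38*, -0.1192 to 0.0986 for *Cyp2c39*, -0.0166 to 0.3715 for *Cyp2c44*, -0.045 to 0.5138 for *Cyp2c54*, -0.1071 to 0.0728 for *Cyp2c67* and -0.1515 to 0.0663 for *Cyp2c68*. *Cyp2c38* ranged from -0.1028 to 0.0311 in HYA-treated against control mice and *Cyp2c67* from -0.1623 to 0.008 in HYA-treated against ND-fed mice. With 3 mice per group and a median of 19610557 fragments on genes, the depth limits *Cyp2c40* most, which had 4 to 64 fragments per mouse.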
